A study of Mus musculus with 25 samples.

Results

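The messenger RNA of 7 genes for histone demethylases that act on lysine 9 of histone H3 (H3K9) was followed in mouse embryos: Kdm3a, Kdm3b, Kdm4a, Kdm4b, Kdm4c, Kdm4d and Kdm1a. They were found by gene symbol among 24708 gene loci, and each of the 7 symbols had 1 locus. Levels are in FPKM, fragments per kilobase of transcript scaled to the fragments of the library, so they take gene length into account. They are not on 1 common scale between the stages, and levels set across stages are given unscaled unless stated. On build mm9, Kdm4a (chr4:117809609-117852648), Kdm4c (chr4:73888401-74051768) and Kdm1a (chr4:136106448-136158638) share a chromosome. Kdm3a lies at chr6:71538964-71582911, Kdm3b at chr18:34936662-34999024, Kdm4b at chr17:56465473-56542296 and Kdm4d at chr9:14267025-14304926. No other locus in the files overlaps any of the 7, and since values are per gene, exons and isoforms were not separated.

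Methyl groups on H3K9 mark heterochromatin and silenced genes, and demethylases take them off. Enzymes of the Kdm3 and Kdm4 families carry a Jumonji C domain, which needs iron, oxygen and 2-oxoglutarate. Kdm3 enzymes act on mono- and dimethylated H3K9. Kdm4 enzymes act on trimethylated and dimethylated H3K9 and, for several of them, on methylated H3K36. Kdm1a, also called LSD1, is a flavin-dependent amine oxidase of another class, best known for removing methyl groups from H3K4 in the CoREST complex and reported to act on H3K9 with nuclear receptors. In the early mouse embryo the egg's stored transcripts are degraded while the embryo's own genome is switched on, and methylated histones are remodelled over the same divisions.

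Polyadenylated RNA of BDF1 mouse embryos was measured in 11 libraries. Blastocysts, collected at embryonic day 4.0, carried the labels Fzr1-OE (3 libraries) and Control (2 libraries). Embryos at the 2-cell stage, collected at embryonic day 1.5, carried the labels sIVF, IVF and WT (2 libraries each). The labels do not spell out sIVF, do not say how overexpression in Fzr1-OE was made or what the Control embryos received, and do not give the number of embryos per library. Nor do they tie replicates to separate cultures or animals, so p-values measure only the spread between these libraries, which may be technical. In whole embryos, fewer cells of a type and less RNA per cell cannot be told apart.

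The libraries differed by stage in depth and complexity. The deposited confidence bounds implied 9321990 to 10481238 fragments in blastocyst libraries and 4741156 to 6375841 in 2-cell libraries, and 13658 to 13947 loci against 10085 to 11860 loci were above 0. Pearson's r between replicates on log2(FPKM + 1) was 0.988 to 0.990 in blastocysts and 0.927 to 0.937 in 2-cell embryos. Fzr1, which activates the anaphase-promoting complex, stood at 12.7, 15.5 and 17.1 FPKM in the libraries labelled Fzr1-OE, against 16.5 and 16.5 FPKM in Control. The targeted transcript was thus above Control in 1 of 3 libraries of its label, and directions below are those of the libraries labelled Fzr1-OE. Trophectoderm markers summed to 3548 to 3612 FPKM in the libraries labelled Fzr1-OE and 5599 to 5639 FPKM in Control, and inner cell mass markers to 101 to 114 FPKM against 79.0 to 90.3 FPKM. Most of the trophectoderm sum was Krt18 (2320 to 2471 FPKM against 3868 and 3860 FPKM) and Krt8 (939 to 1015 FPKM against 1526 and 1489 FPKM). Elf5, Eomes and Gata3 also lay below Control, while Cdx2, Tead4 and Tfap2c overlapped between the groups. Of 8 markers of the 2-cell stage, 4 had a value of 0 in each library labelled Fzr1-OE and 6 in both Control libraries, the Zscan4 genes among them. Eif1a, of the same list, was instead higher in blastocysts (85.7 to 104.9 FPKM) than in WT 2-cell embryos (46.0 and 45.9 FPKM), so the list's sums overlapped, at 95.6 to 116.7 FPKM in blastocysts and 104.9 to 136.1 FPKM in WT.

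**Figure D1:**
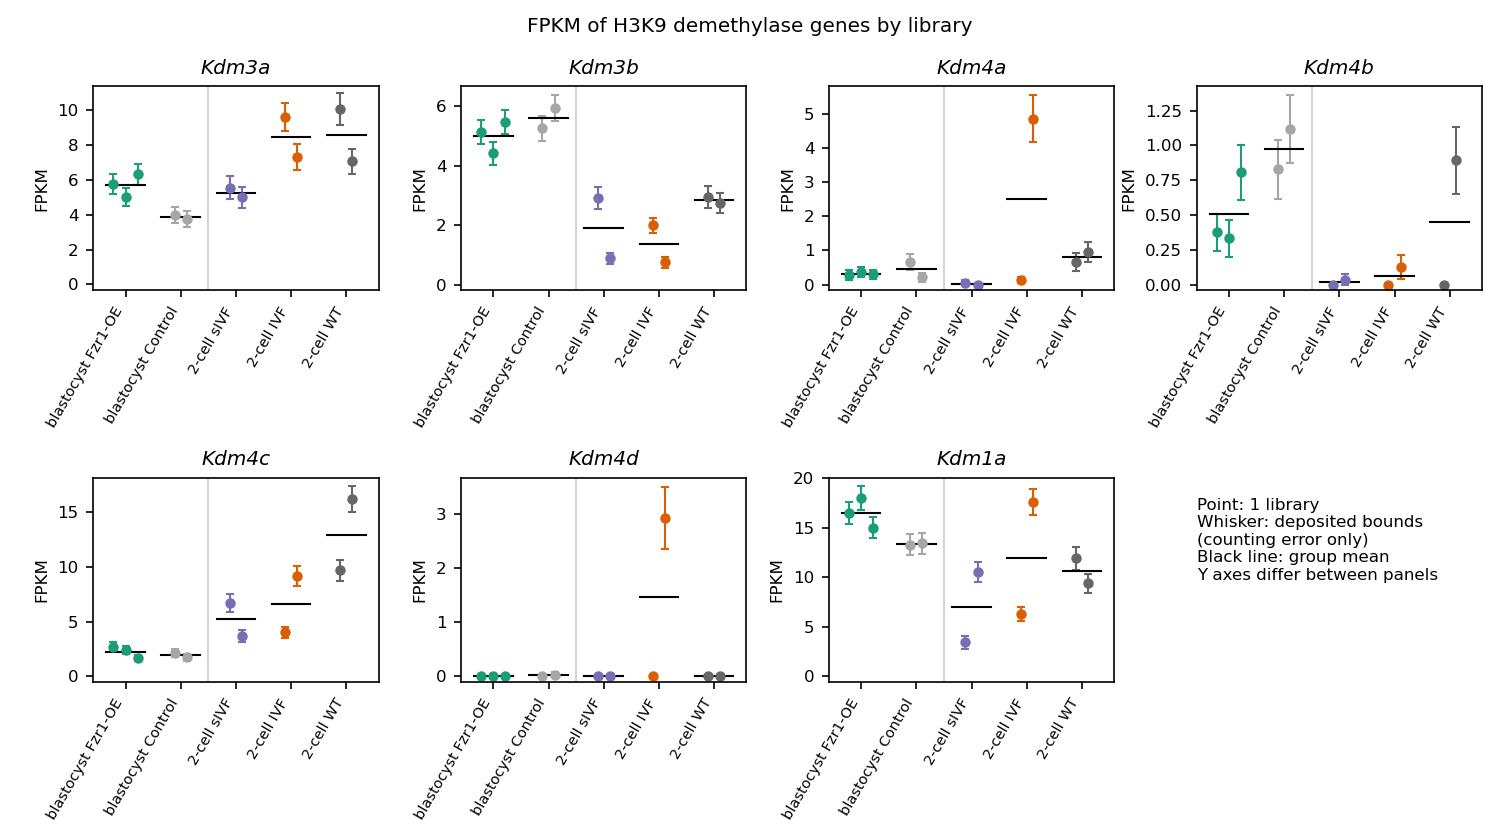
FPKM (y axis, scale differing between panels) of the 7 demethylase genes in each library (points), grouped by label on the x axis, with the deposited confidence bounds as whiskers and group means as black lines. Kdm4c is lowest in the 5 blastocyst libraries (1.64 to 2.68 FPKM), Kdm3b is highest there (4.42 to 5.95 FPKM), and Kdm4d is above 1 FPKM in a single IVF library.

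Kdm3a, an H3K9me2 demethylase known from spermatogenesis and sex determination in the mouse, was detected in every library at moderate levels. It measured 5.75, 5.01 and 6.30 FPKM in the libraries labelled Fzr1-OE and 3.98 and 3.72 FPKM in Control blastocysts. In 2-cell embryos it measured 5.54 and 4.99 FPKM under sIVF, 9.57 and 7.29 FPKM under IVF, and 10.05 and 7.07 FPKM in WT. Control blastocysts held the lowest Kdm3a levels of all 5 groups, and the 2 sIVF libraries lay below every IVF and WT library. By group mean of unscaled FPKM the order was WT 2-cell, IVF, Fzr1-OE, sIVF and Control; WT and IVF overlapped, as did Fzr1-OE and sIVF, while the other neighbours were apart. With upper-quartile scaling Fzr1-OE (3.87 to 4.85) lay below sIVF (6.25 and 6.95).

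Kdm3b is the paralog of Kdm3a. It measured 5.14, 4.42 and 5.47 FPKM in the libraries labelled Fzr1-OE and 5.27 and 5.95 FPKM in Control. At the 2-cell stage it measured 2.92 and 0.878 FPKM under sIVF, 2.00 and 0.741 FPKM under IVF, and 2.94 and 2.75 FPKM in WT. On unscaled FPKM all 5 blastocyst libraries lay above all 6 of the 2-cell libraries; with upper-quartile scaling the second library labelled Fzr1-OE (3.42) fell among the 2-cell values (up to 3.71). The replicates of sIVF and of IVF were far apart, with the second of each pair below 1 FPKM, whereas the WT pair was tight.

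Kdm4c, an H3K9me3 demethylase known in mouse embryonic stem cells for helping to keep pluripotency genes open, was the Kdm4 transcript found in every library. It measured 2.68, 2.39 and 1.64 FPKM in the libraries labelled Fzr1-OE and 2.10 and 1.72 FPKM in Control. At the 2-cell stage it measured 6.70 and 3.68 FPKM under sIVF, 4.03 and 9.17 FPKM under IVF, and 9.70 and 16.24 FPKM in WT. On unscaled FPKM, WT 2-cell embryos stood above all other groups, sIVF and IVF overlapped, and every 2-cell library exceeded every blastocyst library. With upper-quartile scaling the second IVF library (12.5) lay above the first WT library (12.2), so IVF and WT overlapped.

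Kdm4a, Kdm4b and Kdm4d were low. Kdm4a, which acts on H3K9 and H3K36, was at 0.215 to 0.668 FPKM in the 5 blastocyst libraries. At the 2-cell stage Kdm4a was at 0.0548 and 0 FPKM under sIVF, 0.140 and 4.87 FPKM under IVF, and 0.671 and 0.965 FPKM in WT. Kdm4b, another broadly acting member of the family, measured 0.375, 0.333 and 0.806 FPKM in the libraries labelled Fzr1-OE, each below the 0.828 and 1.12 FPKM of Control. Kdm4b at the 2-cell stage was listed at 0 in 3 libraries and reached 0.893 FPKM in the second WT library, 0.124 FPKM in the second IVF library and 0.0318 FPKM in the second sIVF library. Kdm4d, known mainly from the testis, was listed at 0 in 9 libraries, at 0.0233 FPKM in the second Control library and at 2.92 FPKM in the second IVF library. So the only values above 2 FPKM for Kdm4a and Kdm4d came from the same library, the second IVF replicate. The bounds implied about 202 fragments for Kdm4a and 104 for Kdm4d there, so these were not single-fragment values, yet the first IVF library held about 9 fragments of Kdm4a and listed Kdm4d at 0.

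Kdm1a was the most abundant of the 7 transcripts in all 5 blastocyst libraries. It measured 16.51, 18.02 and 15.02 FPKM in the libraries labelled Fzr1-OE and 13.28 and 13.43 FPKM in Control. At the 2-cell stage it measured 3.41 and 10.51 FPKM under sIVF, 6.23 and 17.65 FPKM under IVF, and 11.92 and 9.37 FPKM in WT. The libraries labelled Fzr1-OE lay above Control, but below that pair of groups the ranges of Control, IVF, WT and sIVF overlapped between neighbours. That order is of unscaled FPKM, and with upper-quartile scaling Kdm1a was at 10.7 and 10.8 in Control, below the 15.0 and 12.6 of WT 2-cell embryos.

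Part of this scatter exceeded counting error. Among IVF replicates the deposited bounds did not overlap for 6 of the 6 members that averaged at least 1 FPKM, set beside 71.9% of loci at that level. Kdm4a and Kdm4d reached that average only through the second IVF library, so their bounds could hardly overlap and they add nothing to this count. The count was 3 of 4 for sIVF and 3 of 4 for WT, beside 72.5% and 72.4% of loci. In Control blastocysts it was 0 of 4, beside 38.2% of loci, and in the pairs of libraries labelled Fzr1-OE it was 0, 1 and 4 of 4, beside 40.8%, 41.3% and 38.8% of loci.

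The 7 transcripts together, on unscaled FPKM, summed to 26.1 to 30.7 FPKM in blastocysts and to 18.6 to 42.8 FPKM in 2-cell embryos. With upper-quartile scaling the sums were 21.1 and 21.1 in Control blastocysts, against 44.5 and 50.1 in WT 2-cell embryos, so the comparison of sums depends on the scaling. Shares of the sum do not change with a single factor per library. Kdm1a made up 50.8% to 59.0% of that sum in blastocysts, against 18.3% to 52.3% in 2-cell embryos. Kdm4c made up 5.56% to 8.72% in blastocysts, against 18.3% to 43.5% in 2-cell embryos. Its share ranges did not overlap between stages, while those of Kdm1a overlapped through the second sIVF library.

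**Figure D2:**
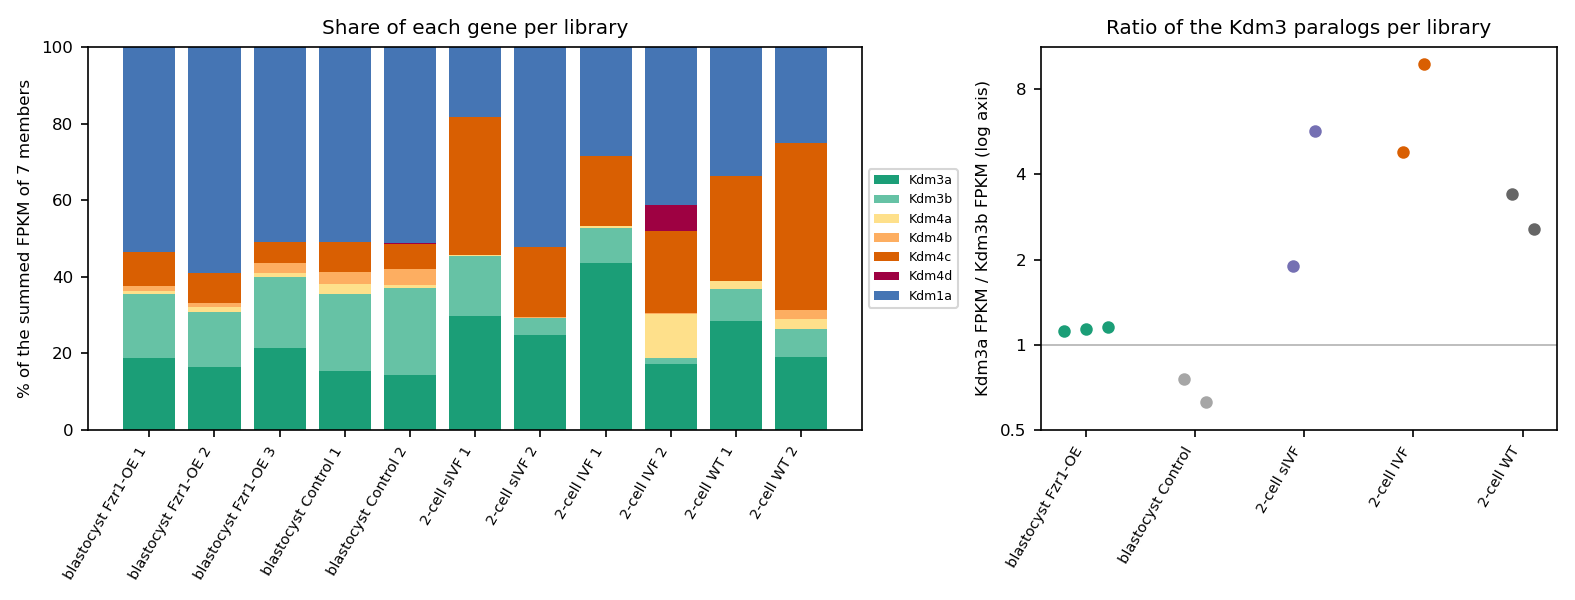
Left: percentage of the summed FPKM of the 7 genes (y axis) contributed by each gene (colours) in each library (x axis). Right: Kdm3a FPKM divided by Kdm3b FPKM on a log axis, 1 point per library, which lies at 1.12 to 1.15 in the libraries labelled Fzr1-OE, at 0.625 to 0.755 in Control and at 1.90 to 9.84 in 2-cell embryos.

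The change from cleavage to blastocyst was read by setting Control blastocysts against WT 2-cell embryos, the group labelled Control or WT at each stage. Kdm4c was lower in blastocysts, averaging 1.91 ± 0.267 FPKM in Control blastocysts and 13.0 ± 4.62 FPKM in WT 2-cell embryos (SD, n = 2 each). The log2 fold change was −2.23 (SE 0.43, 95% interval −3.19 to −1.26; limma, adjusted p = 0.00157). Kdm3a was lower too, averaging 3.85 ± 0.181 FPKM in Control blastocysts and 8.56 ± 2.11 FPKM in WT 2-cell embryos (SD, n = 2 each). Its log2 fold change was −0.96 (SE 0.27, 95% interval −1.57 to −0.35; limma, adjusted p = 0.0117).

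Kdm3b and Kdm1a did not pass. Kdm3b averaged 5.61 ± 0.483 FPKM in Control blastocysts and 2.85 ± 0.134 FPKM in WT 2-cell embryos, a log2 fold change of 0.78 (95% interval −0.12 to 1.67; limma, adjusted p = 0.112). Kdm1a averaged 13.4 ± 0.102 FPKM and 10.6 ± 1.80 FPKM in the same groups, a log2 fold change of 0.31 (95% interval −0.86 to 1.48; limma, adjusted p = 0.620). Fold changes are on the log2(FPKM + 1) scale, which understates changes of low genes, and Kdm4a, Kdm4b and Kdm4d averaged under 1 FPKM over the 11 libraries and were not tested.

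Such changes were common between these stages. Of 9762 genes tested, 65.4% passed an adjusted p of 0.05, 45.8% as higher and 19.6% as lower in blastocysts, so that 2 of 4 tested members passing is near the background in number. All 4 tested members had groups that did not overlap, as had 82.5% of genes. The median log2 fold change of all genes was 0.88, and FPKM summed to 502931 to 529532 in blastocyst and 298129 to 335987 in 2-cell libraries. Relative to that median, Kdm4c lay at −3.11, Kdm3a at −1.84, Kdm1a at −0.57 and Kdm3b at −0.10. Quantile normalization moved the median of all genes to −0.02 and the split of calls to 2829 higher and 3033 lower, against 4472 and 1909 unscaled. Upper-quartile scaling gave a median of 0.36 with 3401 higher and 2507 lower.

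Against those shifted medians, under quantile and upper-quartile scaling, Kdm4c lay at −3.29 and −3.13 and Kdm3a at −1.79 and −1.90. Kdm1a lay at −0.51 and −0.68 and Kdm3b at −0.01 and −0.12. Upper-quartile scaling uses a single factor per library, which moves members and median nearly alike, so these distances could hardly change under it. The sign of the Kdm1a fold change turned under quantile and upper-quartile scaling, to −0.53 and −0.33. That of Kdm3b turned under quantile normalization, to −0.03. The Kdm3a call was lost without the first WT 2-cell library (log2 fold change −0.73, limma, adjusted p = 0.0536) and without the second Control library (−0.92, limma, adjusted p = 0.0624), over a range of adjusted p from 3.40e-04 to 0.0624. The Kdm4c call held in all 12 alternatives, with adjusted p from 2.83e-04 to 0.0150. Transcripts stored in the oocyte were lower in Control blastocysts for 7 of 7 tested genes, such as Btg4 (−6.58) and Oosp1 (−5.48), and their part in the Kdm3a and Kdm4c values was not tested. Stage and library depth cannot be told apart in this comparison.

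**Figure D3:**
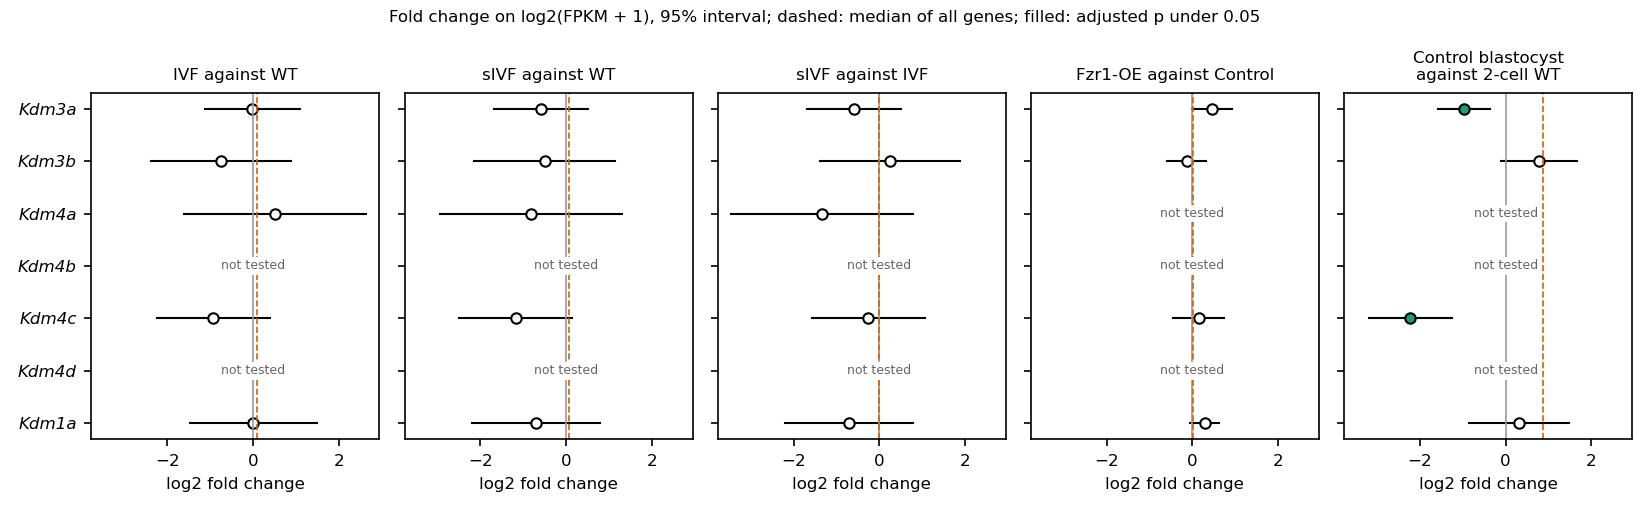
Log2 fold change on log2(FPKM + 1) (x axis) of each demethylase gene (rows) in the 5 comparisons (panels), with 95% intervals, the median of all genes tested as a dashed line and filled points for an adjusted p under 0.05. Filled points appear for Kdm3a (−0.96) and Kdm4c (−2.23) in Control blastocysts against 2-cell WT, and in no other panel; Kdm4a entered the 2-cell fits only through the second IVF library.

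Sequences before the start sites of Kdm4c and Kdm3a are shown because theirs were the member calls that passed. Promoter entries from the RefSeq table of build GRCm38.p6 were used for 5 of the 7 genes. None was used for Kdm3b and Kdm4b, and whether the RefSeq table holds an entry for Kdm3b was not established. The 250 bases before the start site that matches the deposited locus span are printed 5′ to 3′ on the strand of the gene, with capitals marking the letters CCAAT or GGGCGG on either strand. The Kdm3a stretch is at chr6:71632918-71633167 on the minus strand, and the Kdm4c stretch at chr4:74242247-74242496 on the plus strand.
Kdm3a: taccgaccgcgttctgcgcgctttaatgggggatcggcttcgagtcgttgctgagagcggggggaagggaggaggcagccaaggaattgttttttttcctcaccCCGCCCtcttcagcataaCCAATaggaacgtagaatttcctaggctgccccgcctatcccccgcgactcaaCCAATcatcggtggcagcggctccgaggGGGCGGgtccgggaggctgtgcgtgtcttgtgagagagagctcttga
Kdm4c: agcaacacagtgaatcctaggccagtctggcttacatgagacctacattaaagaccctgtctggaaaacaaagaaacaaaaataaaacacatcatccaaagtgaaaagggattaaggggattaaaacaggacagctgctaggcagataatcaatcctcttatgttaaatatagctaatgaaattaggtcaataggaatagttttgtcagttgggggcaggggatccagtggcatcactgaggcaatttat
The Kdm3a stretch held 20 CpG dinucleotides and 59.6% G and C, while the Kdm4c stretch held 0 CpG and 39.6% G and C; the median of 32851 RefSeq windows of the same length was 6 CpG. Kdm3a held CCAAT at 128 and 75 bases before the start, and GGGCGG at 47 bases before it and, on the opposite strand, at 146 bases. Of all windows, 33.8% held CCAAT and 32.7% held GGGCGG on either strand, so neither is rare. The Kdm4c stretch held neither of them, nor CACGTG, which 6.02% of windows held, nor TATAAA, which 12.4% held. The contrast holds for these starts only: a second RefSeq start of Kdm4c had 19 CpG and 2 copies of CACGTG, while of the 2 other starts of Kdm3a one had 0 CpG and none of the motifs and the other had 31 CpG and 4 copies of GGGCGG. Which start the embryos used was not measured, and a match is a description of letters, not a bound site.

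Blastocysts labelled Fzr1-OE were set against Control blastocysts. Kdm3a had the lowest p of the members: each of its 3 libraries labelled Fzr1-OE lay above both Control libraries, averaging 5.68 ± 0.649 FPKM (SD, n = 3) and 3.85 ± 0.181 FPKM (SD, n = 2). The log2 fold change was 0.46 (SE 0.21, 95% interval −0.00 to 0.92; limma, adjusted p = 0.258), so it did not pass. Kdm1a, at 16.5 ± 1.50 FPKM (SD, n = 3) and 13.4 ± 0.102 FPKM (SD, n = 2), was also above Control in 3 of 3 libraries, with a log2 fold change of 0.28 (95% interval −0.05 to 0.62; limma, adjusted p = 0.335).

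The other tested members overlapped between the groups. Kdm3b averaged 5.01 ± 0.539 FPKM (SD, n = 3) and 5.61 ± 0.483 FPKM (SD, n = 2), a log2 fold change of −0.14 (95% interval −0.60 to 0.32; limma, adjusted p = 0.776). Kdm4c averaged 2.24 ± 0.536 FPKM and 1.91 ± 0.267 FPKM in the same groups, a log2 fold change of 0.14 (95% interval −0.44 to 0.73; limma, adjusted p = 0.830). The number of members passing was 0 of 4, beside 4.21% of 9439 genes, of which 216 were higher and 181 lower. Groups did not overlap for 2 of the 4 tested members, beside 37.4% of genes. Kdm4b, untested for its low level, was the member with every library labelled Fzr1-OE below Control.

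The ratio of Kdm3a to Kdm3b in FPKM does not change with a single scaling factor per library. It was 1.12, 1.13 and 1.15 in the libraries labelled Fzr1-OE and 0.755 and 0.625 in Control. By value, Kdm3a was thus the higher of the 2 paralogs in the first group and the lower in the second. The deposited bounds of the paralogs overlapped in every library labelled Fzr1-OE and were apart in both Control libraries. Overlap of bounds does not settle whether the order in the libraries labelled Fzr1-OE exceeds counting error, which was not tested. The mean log2 ratio differed by 0.72 (exact permutation test, two-sided p = 0.2, the smallest that 3 against 2 libraries allow). The same ratio was 3.42 and 2.57 in WT 2-cell embryos, and Control blastocysts lay 2.11 below them on the log2 scale (exact permutation p = 0.333, the smallest that 2 against 2 allow). It was 1.90 and 5.68 under sIVF and 4.80 and 9.84 under IVF, so every 2-cell library had more Kdm3a than Kdm3b. The ratio of Kdm4c to Kdm1a was 0.158 and 0.128 in Control blastocysts, against 0.813 and 1.73 in WT 2-cell embryos, a log2 difference of −3.06 (exact permutation p = 0.333). Over 10 such ratio comparisons the lowest Benjamini-Hochberg adjusted p was 0.667.

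Markers of cell type moved with the same blastocyst groups. Trophectoderm markers fell for 4 of 8, beside 181 lower among all 9439 genes, with log2 fold changes of −1.14 for Elf5, −0.74 for Eomes, −0.69 for Krt18 and −0.61 for Krt8, while 1 of 7 inner cell mass markers rose, Gata6 by 0.72. Of 4 tested markers of the 2-cell stage 3 rose, beside 216 higher among all 9439 genes. They were Tdpoz4 and Zfp352 (both listed at 0 in Control) and Gm4340. All 3 reached the 1 FPKM average needed for testing only through the libraries labelled Fzr1-OE, so their count is not read as a result. Dppa3, the 1 tested gene among those stored in the oocyte, rose by 0.31. The part of these differences in the Kdm3a and Kdm1a values was not tested.

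At the 2-cell stage no member passed in any comparison. Under IVF, Kdm4c was below WT in both libraries on unscaled FPKM, with a log2 fold change of −0.92 (SE 0.57, 95% interval −2.24 to 0.39; limma, adjusted p = 0.588). Kdm3b was also below WT in both, with −0.75 (95% interval −2.39 to 0.88; limma, adjusted p = 0.737). Both sizes moved with single libraries: without IVF replicate 1 they were −0.42 for Kdm4c and −1.14 for Kdm3b, and without IVF replicate 2 they were −1.43 and −0.36. Kdm3a and Kdm1a had fold changes of −0.01 (95% interval −1.11 to 1.09) and 0.00 (95% interval −1.48 to 1.49), and their groups overlapped. The intervals of Kdm3a and Kdm1a still allow changes of over 1 log2 unit in either direction. Among 8246 genes 1 passed, or 0.0121%, while 1024 had an unadjusted p under 0.05. On unscaled FPKM, groups did not overlap for 2 of the 4 tested members besides Kdm4a, beside 42.2% of genes.

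Under sIVF, Kdm4c was again below WT in both libraries, with a log2 fold change of −1.18 (SE 0.57, 95% interval −2.49 to 0.14; limma, adjusted p = 0.739). Kdm3a was below WT in both as well, with −0.59 (95% interval −1.69 to 0.51; limma, adjusted p = 0.796). Kdm4a was at or near 0 under sIVF, but it reached the 1 FPKM average needed for testing only through the second IVF library, so none of its 2-cell fits is read as a test. Kdm3b and Kdm1a overlapped with WT at −0.50 and −0.70, the Kdm1a value being −0.00919 without sIVF replicate 1 and −1.39 without sIVF replicate 2. IVF and sIVF share the WT libraries, so their agreement in the direction of Kdm4c is not independent. None of 8246 genes passed (0%), with 585 at an unadjusted p under 0.05, and groups did not overlap for 2 of the 4 other tested members, beside 35.9% of genes.

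Set directly against IVF, sIVF embryos had lower Kdm3a in both libraries, with a log2 fold change of −0.58 (95% interval −1.68 to 0.52; limma, adjusted p = 0.690). Kdm3b (0.25), Kdm4c (−0.25) and Kdm1a (−0.71) overlapped. Here too 0 of 8246 genes passed (0%), with 974 at an unadjusted p under 0.05, and groups did not overlap for 1 of the 4 tested members besides Kdm4a, beside 42.7% of genes.

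Markers of the 2-cell stage summed to 134.6 to 146.2 FPKM under sIVF, 56.5 to 74.9 FPKM under IVF and 104.9 to 136.1 FPKM in WT, with 0 of 7 tested passing in each comparison. Fzr1 itself was at 0.239 and 2.00 FPKM under sIVF, 7.69 and 10.1 FPKM under IVF, and 0.117 and 0.233 FPKM in WT. Of 10 cumulus and granulosa markers, which would mark cells carried over around the egg, 7 or 8 were listed at 0 in each 2-cell group, among them Fshr, Foxl2 and Cyp19a1. Their summed level was 1.38 to 5.0 FPKM under sIVF, 6.93 to 8.17 FPKM under IVF and 1.26 to 5.34 FPKM in WT. The IVF sums were Amhr2 alone in the first library (8.17 FPKM) and Amhr2 (3.45 FPKM) with Tnfaip6 (3.48 FPKM) in the second. Amhr2 was also at 1.12 to 3.84 FPKM in blastocysts, so the sums do not measure carried-over cells. The part of either list in the member values was not tested.

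Genes that work with these enzymes were read from lists, whose stage counts stand beside 45.8% of all genes higher and 19.6% lower. Among the other H3K9 demethylases, 2 of 4 tested fell in Control blastocysts against WT 2-cell embryos and 0 rose. Kdm7a, which acts on H3K9me2 and H3K27me2, averaged 0.984 ± 0.270 FPKM in Control blastocysts and 14.7 ± 6.89 FPKM in WT 2-cell embryos (log2 fold change −2.92; limma, adjusted p = 1.96e-04). Kdm1b, the H3K4 demethylase needed for maternal imprints in mouse oocytes and reported to act on H3K9me2 as well, averaged 1.26 ± 0.555 and 4.53 ± 2.40 FPKM (−1.24; limma, adjusted p = 0.0200). The list's median was −0.97, set beside 0.88 for all genes.

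Demethylases of other histone lysines had 4 of 8 lower and 1 higher, with a median of −0.90. Under quantile normalization 6 were lower and 0 higher. The lower ones were the H3K27 demethylases Kdm6a (−2.67) and Kdm6b (−1.34) and the H3K4 demethylases Kdm5b (−2.38) and Kdm5c (−1.53). Kdm2b, an H3K36 demethylase of a Polycomb complex, was the higher one (1.38), and its call was lost under quantile and upper-quartile scaling.

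The list of enzymes that write H3K9 methylation, which also held the cofactor Atf7ip, was mixed. Of its 8 tested genes 1 was higher and 2 were lower, with a median of 0.36, below the 0.88 of all genes. The median turned to −0.48 under quantile normalization and −0.21 under upper-quartile scaling, with 3 lower in each. The partners Ehmt2 and Ehmt1, which together form the G9a-GLP methyltransferase, moved apart. Ehmt2 averaged 8.35 ± 0.563 FPKM in Control blastocysts and 0.157 ± 0.0599 FPKM in WT 2-cell embryos (3.01; limma, adjusted p = 1.08e-04). Ehmt1 averaged 4.51 ± 0.785 and 15.5 ± 6.40 FPKM in the same groups (−1.54; limma, adjusted p = 0.00318). Setdb2 was lower at −2.33.

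Readers and silencing cofactors had 4 of 11 higher and 4 lower. The HP1 proteins, which bind H3K9me3, divided: Cbx3 was lower, with a log2 fold change of −5.52 (78.8 ± 68.8 FPKM in Control blastocysts and 2924 ± 493 FPKM in WT 2-cell embryos), while Cbx1 (3.55) and Cbx5 (1.51) were higher. The Cbx5 call was lost under quantile normalization. Trim28 (1.95), the corepressor of KRAB zinc finger proteins, and Uhrf1 (1.73), which links H3K9 methylation to maintenance DNA methylation, were higher as well. Morc2a (−2.08) and Fam208a (−1.04), which silence with the HUSH complex, and the chromatin remodeller Atrx (−0.73) were lower.

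Of 6 tested partners of Kdm1a in its corepressor complexes 3 were higher and 1 lower, near the shares of all genes. Hdac2, a histone deacetylase, was higher (1.98) and Zmym2 lower (−1.47). Hmg20b (3.20) and Rcor3 (1.18) were higher unscaled, and both calls were lost under quantile normalization, the Rcor3 call also under upper-quartile scaling. Enzymes that supply or use 2-oxoglutarate, the cosubstrate of the Jumonji C enzymes, had 7 of 10 higher and 0 lower, with a median of 2.95. Idh1 averaged 149 ± 2.35 FPKM in Control blastocysts and 0.210 ± 0.250 FPKM in WT 2-cell embryos (6.97; limma, adjusted p = 2.10e-06), and Idh3a, Idh2 and Idh3b had 5.25, 4.92 and 4.60. Under quantile normalization 6 were higher and 1, Psat1, lower.

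**Figure D4:**
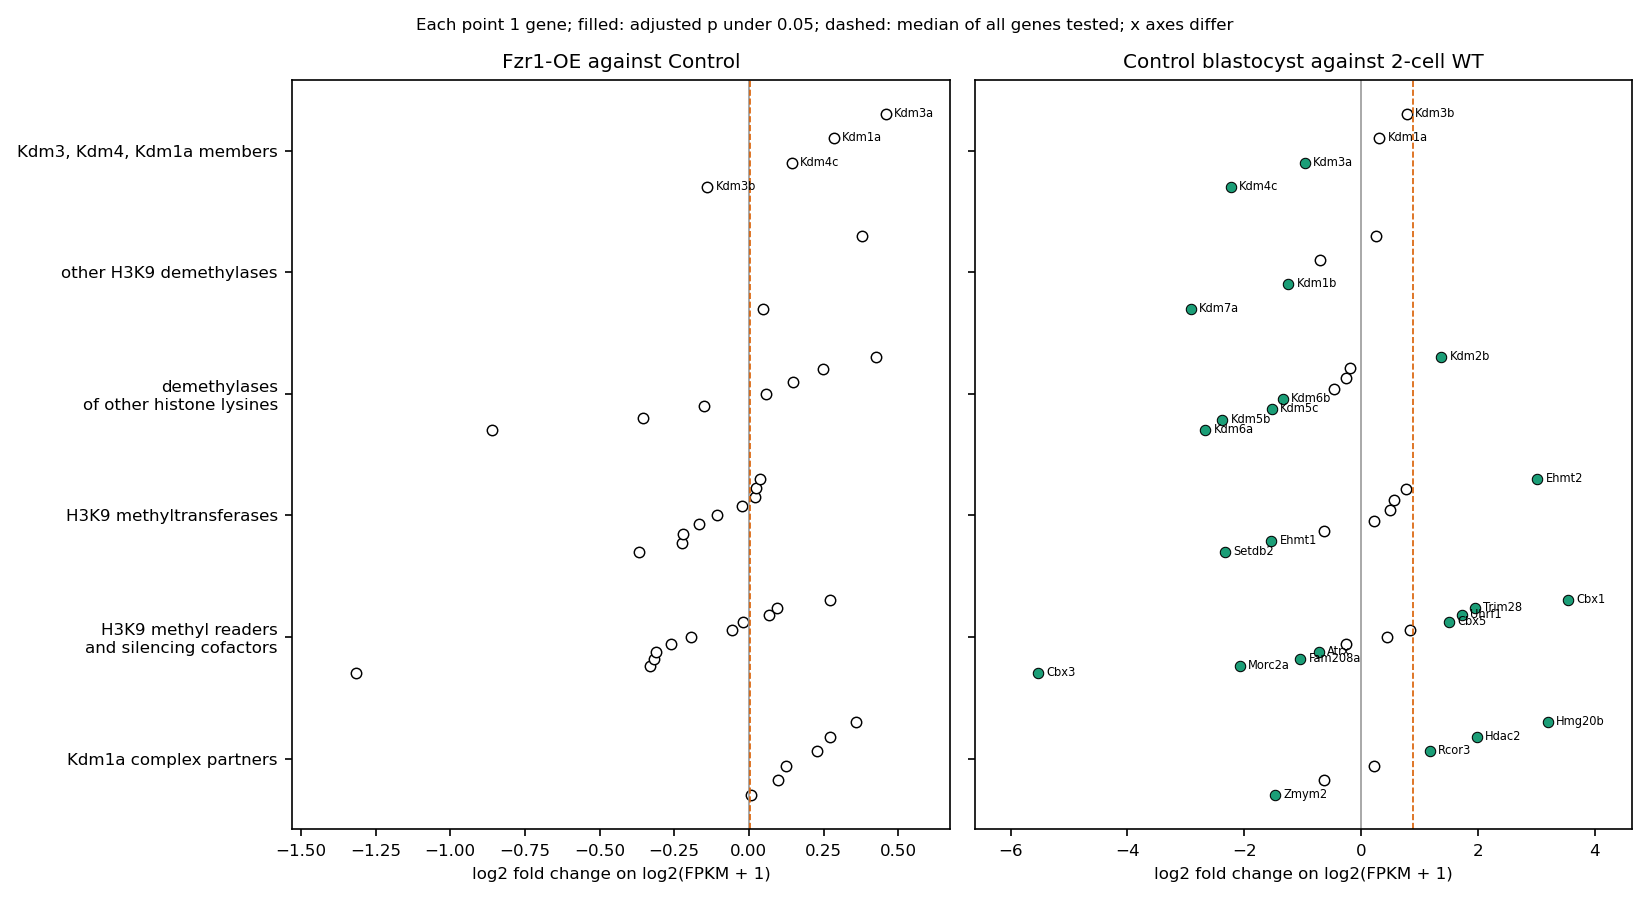
Log2 fold change on log2(FPKM + 1) (x axis, scale differing between panels) of each tested gene (points) in the demethylase group and in 5 lists of related genes (rows), for libraries labelled Fzr1-OE against Control and for Control blastocysts against 2-cell WT; filled points passed an adjusted p of 0.05 and the dashed line is the median of all genes. No point is filled on the left, and on the right Cbx3 (−5.52) and Cbx1 (3.55) mark the ends.

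Between blastocysts labelled Fzr1-OE and Control, 0 genes of these 5 chromatin lists passed, nor did any of the 10 tested genes of 2-oxoglutarate supply. The lowest adjusted p values were those of Kdm6b (−0.86; limma, adjusted p = 0.140) and Cbx3 (−1.32; limma, adjusted p = 0.151). Both sizes rest largely on the second Control library. Kdm6b was at 4.26 and 8.89 FPKM in Control, against 2.55 to 3.42 FPKM in the libraries labelled Fzr1-OE. Cbx3 was at 30.1 and 127 FPKM in Control, against 19.8 to 27.6 FPKM. All 6 tested Kdm1a partners had positive fold changes, with a median of 0.18. On the H3K9 methyltransferase list, cofactors Atf7ip and Wiz included, 3 of 9 tested genes had positive ones, with a median of −0.11. The median of all genes was 0.01. In the 2-cell comparisons 0 listed genes passed either. Within the chromatin lists the lowest adjusted p there belonged to Cbx3, with 0.94 for sIVF against IVF (limma, adjusted p = 0.150) and −0.90 for IVF against WT (limma, adjusted p = 0.151).

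The genes whose pattern over the 11 libraries was most like each member were ranked by Pearson's r on log2(FPKM + 1) among 5493 loci that averaged at least 5 FPKM. These values describe libraries that share stage and depth. For Kdm4c they were Trim33 (r = 0.955) and Fam210a (0.954), for Kdm3a Snrpa1 (0.915) and Fam98a (0.894), for Kdm3b Ppie (0.974) and Gpha2 (0.967), and for Kdm1a Xrcc4 (0.928) and Ndufs5 (0.915). With each stage's mean removed, r for the first of each pair was 0.920 for Trim33, 0.856 for Snrpa1, 0.939 for Ppie and 0.926 for Xrcc4. These values come from the same libraries by which the genes were picked, so they are not a separate check. For Kdm4b the nearest genes were Slc25a43 (0.933) and Schip1 (0.908). For Kdm4a and Kdm4d the nearest genes, Ddx27 (0.926) and Rpl36al (0.910), rest on the second IVF library.

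The authors' deposited table of enriched gene ontology terms for subcutaneous fat RNA, from 4-month-old Fzr1-OE and Control mice, named 449 gene symbols in 1605 terms, and 0 of the 7 members was among them. The authors' deposited table for reduced-representation bisulfite sequencing of the same tissue named 119 symbols in 632 terms, again with 0 members. These tables list selected genes only, so absence from them gives no level.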

How the data were processed

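Per the file headers, the authors deposited FPKM for each gene locus and library, with a lower and an upper bound. Cufflinks 2.2.1, Cuffdiff, HISAT2 2.1.0 and build mm9 are named, without roles, in the submitters' processing notes. Per the labels' protocols, cDNA was amplified by PCR before fragmentation; whether strand was kept is not given in the sources used here. For fat, the deposited values are a p-value of Fisher's test and its FDR for gene ontology terms, per the file headers, so these tables were only searched for gene names. The H3K9me3 samples were not analysed here.

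Members and lists were chosen with earlier results of these data known. Genes named besides the members are list genes that passed, or had the lowest adjusted p, and the 2 nearest patterns of each member; Uhrf1, Cbx5, Fam208a, Atrx, Kdm6b, Psat1 and genes listed at 0 were added after their values were seen. Fragments behind a value were implied from the deposited bounds, taken as 2 SD of a Poisson count, and cover counting error only. Values were analysed as log2(FPKM + 1) without further scaling, with limma 3.58.1 (intensity trend, Benjamini-Hochberg adjustment) in R 4.3.3. Loci averaging at least 1 FPKM over the libraries fitted were tested: 6 libraries for the 2-cell comparisons, 5 for blastocysts and 11 for stage, at an adjusted p of 0.05. Ratios used exact permutation tests (SciPy 1.17.1). Alternatives were a pseudocount of 0.1, a filter of 5 FPKM or none, quantile normalization, no trend, a replicate block, the compared libraries alone, each library left out and, added after seeing the data, upper-quartile scaling.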

Additional observations from a re-analysis of the deposited data

How the results depend on the processing

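Another filter, no trend and the compared libraries alone leave a fold change as it is, so there only the adjusted p could move. The same holds for the replicate block, except for libraries labelled Fzr1-OE against Control. The counts here include those alternatives and the 2-cell fits of Kdm4a, which are not read as tests. Of 264 alternative values of the members' fold changes, 246 kept their direction and their side of the threshold. Of the others, 15 changed sign, 2 no longer passed and 1 newly passed. The 2 were Kdm3a in Control blastocysts against 2-cell WT, and the 1 was Kdm3b in that comparison with the compared libraries alone (adjusted p = 0.0435, limma). Leaving out each library in turn, 1 to 2 members passed in that comparison, against 2 with all libraries. For IVF against WT, Kdm1a was −0.0100 with a pseudocount of 0.1, −0.0604 under quantile normalization and −0.68 to 0.69 with single libraries left out, and Kdm3a was 0.00375 under upper-quartile scaling and −0.24 to 0.22 with libraries left out. With libraries left out, Kdm3b spanned −1.03 to 0.0260 for sIVF against WT and −0.28 to 0.78 for sIVF against IVF, while Kdm4c spanned −0.76 to 0.25 for sIVF against IVF. Without losing its sign, Kdm1a spanned −1.39 to −0.00919 for sIVF against WT and −1.40 to −0.0132 for sIVF against IVF, and Kdm4c −1.43 to −0.42 for IVF against WT. For stage, Kdm3b was −0.0279 under quantile normalization, and Kdm1a was −0.53 under it and −0.33 under upper-quartile scaling.

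Counts over all genes moved more. For IVF against WT, 1 gene passed, against 0 with a pseudocount of 0.1, no filter, quantile normalization, no trend or the compared libraries alone, 21 with the 5 FPKM filter, 3 under upper-quartile scaling, and 0 to 0 with libraries left out. For sIVF against IVF, 0 passed, against 32 with the 5 FPKM filter and 15 under quantile normalization. For libraries labelled Fzr1-OE against Control, 397 passed, against 0 with no filter, 41 with no trend, and 87 to 350 with libraries left out, namely 350, 210 and 185 without replicates 1, 2 and 3 labelled Fzr1-OE and 177 and 87 without Control replicates 1 and 2. The cause was not tested. That comparison already used the compared libraries alone, so this alternative was not run for it.

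Replicate numbers did not pair the libraries: the replicate differences of the groups correlated at 0.0739, −0.00313, −0.00146 and −0.00827. With the replicate number as a block, 47 genes passed for libraries labelled Fzr1-OE against Control and 1 for IVF against WT, and no member's call changed. Among the blastocysts only the label Fzr1-OE had a replicate 3, so the block took up that library. The members' fold changes there equalled those without it (Kdm3a 0.39 in both), so the block is not a separate check. Most libraries held Kdm4a, Kdm4b and Kdm4d at under 1 FPKM, which limits what can be read for them. The part of depth in these low values was not tested.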
